A study of Mus musculus with 36 samples.

Results

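Cytosine methylation at CpG sites was compared between the livers of dams that had carried and nursed litters and the livers of virgin F1 daughters. The members were 12 of the 24 animals whose liver DNA was read by whole-genome bisulfite sequencing: 3 B6 dams (inbred C57BL/6N females mated to C3H/HeN males), 3 C3 dams (inbred C3H/HeN females mated to C57BL/6N males), 3 B6C3F1 daughters and 3 C3B6F1 daughters, the virgin hybrid females of those crosses. The 6 sires and 6 sons of the same crosses, which share the generation and the genotypes but not pregnancy, served as the comparison. Mating took place at 10 weeks of age and weaning at week 16, and livers were taken at week 20, which was 4 weeks after weaning. Dams and daughters differed in pregnancy and lactation, in generation, in being inbred or hybrid, and in mating and housing as breeders, and in these females alone these cannot be told apart. Sires and sons also differ in generation, in being inbred or hybrid and in mating, but not in pregnancy and lactation. Housing while litters were reared is not given separately for sires and dams. Since sires and sons are males, a sex-dependent effect of generation or hybrid state cannot be told apart from pregnancy and lactation. Each cross had 3 families, and the series holds 36 samples in all.

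The liver of a rodent grows during pregnancy, and prolactin, placental lactogens and growth hormone act on hepatocytes through 2 related cytokine receptors, Prlr and Ghr, that signal by JAK2 and STAT5. CpG methylation is high over most of the mammalian genome and low at promoters and at active enhancers, and low methylation over a short stretch far from a start site is a common feature of enhancers bound by transcription factors.

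Counts of methylated and unmethylated reads at 18887127 autosomal CpGs were summed over fixed windows of 500 bp. A window was tested if it held at least 5 CpGs and at least 30 counts in each of the 24 animals, which 1456902 windows did. A window was called where the adjusted p was below 0.05 (limma, fitted to the log2 methylated-to-unmethylated ratio and adjusted by Benjamini-Hochberg over every window) and the mean methylation of the 6 dams and the 6 daughters differed by at least 20 percentage points.

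Depth among the 12 females ran from 19.4 to 32.8 counts per CpG. Over all autosomal CpGs, methylation was 76.1% ± 0.871 (SD, n = 6) in dams and 76.4% ± 0.346 (SD, n = 6) in daughters, a difference of -0.377 points (two-sided exact permutation test, p = 0.348, smallest p possible 0.00216). The 3 B6 dams had the lowest values of the 12 females, 75.05% to 75.73%, and the C3 dams had 76.3% to 77.1%. The liver label was checked at the start sites of 12 hepatocyte genes, such as Alb and Ttr. Their mean methylation was between 20.2% and 29.8% in the 12 females, against 78.9% to 83.8% at 8 leukocyte genes. The 5 stellate cell genes were also low, at 18.2% to 23.0%, so a low level does not single out hepatocyte genes.

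In dams, 277 windows were lower and 11 were higher than in daughters. These were 0.019% and 0.000755% of the windows tested. The count of higher windows was 6 without windows holding a variant, without windows where B6 and C3 sires differed by 10 points, or with windows moved by 250 bp, 3 at a minimum of 100 counts, and 17 without C3B6F1 daughter 2. The 277 windows formed 253 regions when called windows within 1000 bp were joined, and 22 of those regions held more than 1 window. The median difference was -23.9 points, 51 windows fell by at least 30 points and 12 by at least 40. In 236 of the 277 windows every dam lay below every daughter, a pattern found in 0.395% of all tested windows. In 200 of them every dam lay below all of the 18 other animals, a pattern of 0.0658% of all tested windows. Since the windows were chosen on these same females, the separation of dams from daughters is largely fixed by the choice. Daughters, sires and sons stood together at these windows: their median levels were 72.7%, 69.8% and 72.8%, and the dams' median was 45.0%. In whole liver, a change in the share of cells of one type and a change of methylation within a cell cannot be told apart.

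**Figure D1:**
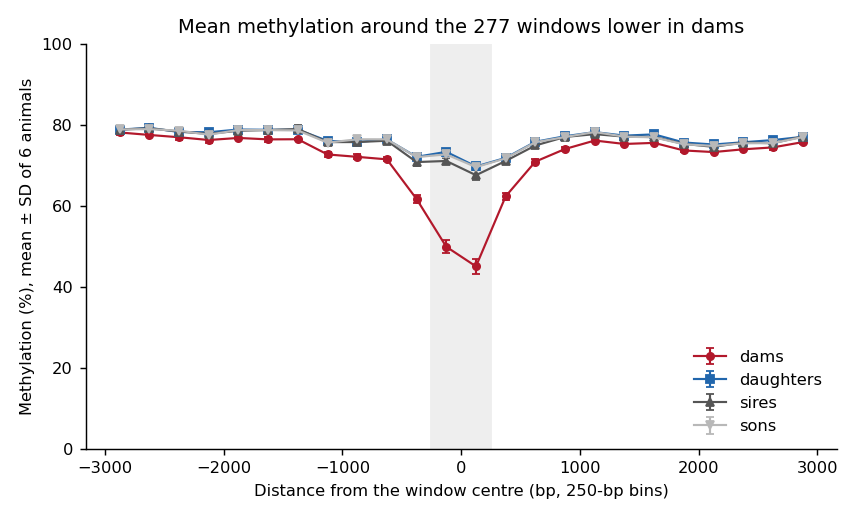
Mean methylation (y axis, %, mean ± SD over 6 animals) of CpGs in 250-bp bins by distance from the centre of the 277 windows lower in dams (x axis, bp; grey, the window itself), for dams, daughters, sires and sons. Dams dip to 49.9% and 45.1% in the central bins, where daughters have 73.4% and 69.7%, and lie nearer to the other groups outside the window; the windows were chosen for this difference.

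The difference was largest within the window and smaller outside it. In the bins just outside the window the dams' mean was 61.7% ± 0.901 on the left and 62.4% ± 0.884 on the right, against 72.1% ± 0.430 and 71.9% ± 0.480 in daughters (SD, n = 6 each). From 1000 to 1250 bp from the centre the 2 groups had 72.7% ± 0.621 and 76.1% ± 0.340 on the left, and 76.2% ± 0.443 and 78.2% ± 0.145 on the right.

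Sequence is shown for the 3 windows with the largest falls (AI427809, Wdr20a, Mtap6), for intronic windows of both hormone receptor genes, and for the window with the largest rise among those where dams and daughters did not overlap (Slc38a4). Each is 300 bases of the mm9 reference, plus strand, from within the window. Capitals mark each CpG and each CAGCTG, a 6-letter E-box.
AI427809 region, chr4:53325539-53325838: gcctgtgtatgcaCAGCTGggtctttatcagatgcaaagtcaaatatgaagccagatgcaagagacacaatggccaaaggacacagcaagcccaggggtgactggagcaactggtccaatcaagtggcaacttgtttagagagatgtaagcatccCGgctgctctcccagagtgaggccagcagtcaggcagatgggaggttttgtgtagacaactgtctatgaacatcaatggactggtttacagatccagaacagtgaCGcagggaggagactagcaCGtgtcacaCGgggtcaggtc
Wdr20a intron, chr12:111987079-111987378: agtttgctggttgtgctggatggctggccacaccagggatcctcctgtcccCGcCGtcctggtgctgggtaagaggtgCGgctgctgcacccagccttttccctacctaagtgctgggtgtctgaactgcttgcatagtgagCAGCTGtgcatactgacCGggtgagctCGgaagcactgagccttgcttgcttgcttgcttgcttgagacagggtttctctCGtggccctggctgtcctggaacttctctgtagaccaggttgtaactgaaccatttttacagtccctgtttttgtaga
Mtap6 intron, chr7:106453642-106453941: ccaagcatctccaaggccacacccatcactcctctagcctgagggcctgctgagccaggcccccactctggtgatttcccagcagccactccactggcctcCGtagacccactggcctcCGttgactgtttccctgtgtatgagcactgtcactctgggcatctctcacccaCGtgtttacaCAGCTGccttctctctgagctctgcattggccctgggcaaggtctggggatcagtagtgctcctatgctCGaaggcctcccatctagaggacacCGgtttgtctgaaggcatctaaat
Ghr intron, chr15:3416501-3416800: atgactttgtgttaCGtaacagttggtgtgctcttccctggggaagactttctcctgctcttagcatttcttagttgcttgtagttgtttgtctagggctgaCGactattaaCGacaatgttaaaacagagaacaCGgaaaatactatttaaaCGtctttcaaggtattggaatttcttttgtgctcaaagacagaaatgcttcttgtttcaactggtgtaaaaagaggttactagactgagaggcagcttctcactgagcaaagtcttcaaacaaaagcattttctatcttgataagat
Prlr intron, chr15:10280001-10280300: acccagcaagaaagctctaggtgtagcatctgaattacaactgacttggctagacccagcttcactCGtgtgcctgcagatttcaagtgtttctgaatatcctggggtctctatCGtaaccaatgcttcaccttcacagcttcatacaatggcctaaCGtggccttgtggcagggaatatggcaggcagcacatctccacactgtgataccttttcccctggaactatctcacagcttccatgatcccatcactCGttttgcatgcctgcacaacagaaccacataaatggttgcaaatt
Slc38a4 intron, chr15:96855501-96855800: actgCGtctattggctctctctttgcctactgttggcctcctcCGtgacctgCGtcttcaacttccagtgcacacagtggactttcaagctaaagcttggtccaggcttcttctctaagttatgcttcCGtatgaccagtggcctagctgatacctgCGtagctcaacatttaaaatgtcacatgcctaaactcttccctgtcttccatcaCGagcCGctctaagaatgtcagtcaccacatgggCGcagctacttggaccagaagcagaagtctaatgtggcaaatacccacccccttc

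The largest fall was in an intergenic window at chr4:53325501-53326000, 50082 bp from the nearest annotated start, that of AI427809. The B6 dams had 17.4%, 25.0% and 23.8% and the C3 dams 23.0%, 39.7% and 29.3%, while the B6C3F1 daughters had 90.1%, 81.0% and 84.8% and the C3B6F1 daughters 84.2%, 89.2% and 88.3%. Every dam lay far below every daughter. The mean fell by 59.9 points (26.4% ± 7.60 against 86.3% ± 3.51, SD, n = 6 each, limma adjusted p = 5.96e-15), and sires had 83.3% ± 3.15. All 5 CpGs of the window took part: the last of them, at position 53325827, was methylated in 19.1% of 236 counts pooled over dams and in 88.6% of 280 counts over daughters.

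An intronic window of Wdr20a, which encodes a WD-repeat partner of deubiquitinating enzymes, lay at chr12:111987001-111987500. Dams ran from 29.8% to 43.8% and daughters from 89.4% to 93.9%. The mean fell by 54.7 points (36.8% ± 4.79 against 91.6% ± 1.59, limma adjusted p = 1.26e-15), nearly alike in B6 dams (-54.9 points) and C3 dams (-54.6 points) against their own daughters. In the sequence of this window the CpG with the largest change, at base 160, stands a few bases after the only CAGCTG.

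An intronic window of Mtap6, a microtubule-stabilising protein, was at 27.5% ± 4.75 in dams and 78.5% ± 3.65 in daughters (SD, n = 6 each, adjusted p = 5.83e-14). An intergenic window 164825 bp from the start of Inhbb, which encodes a subunit shared by inhibins and activins, was at 26.2% ± 5.03 and 75.9% ± 5.64 (adjusted p = 1.10e-10). A second window of that neighbourhood, at chr1:121156001-121156500, was also lower, by 23.3 points. Sires and sons were between 66.5% and 82.9% at the first of them, above every dam.

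The rule for named regions, which asks that no dam overlap a daughter, gave 15 regions lower in dams. The others, named by the gene they lie in or by the nearest start site, ranged from a fall of 48.3 points in an intron of Myst4, a histone acetyltransferase, to a fall of 38.0 points in an exon of Adcy1, an adenylyl cyclase. Between them stood Fam20c (a kinase of secreted proteins), Agfg2, Fam84b, Dynlrb2 (a dynein light chain), Dnajc12, Gata6 (an endodermal transcription factor), Ube2f (a NEDD8-conjugating enzyme), Cpeb2 (an mRNA-binding protein) and Cited2 (a transcriptional co-regulator). Among these 11 regions, those of Myst4, Dnajc12 and Adcy1 lay inside the gene they are named for, and a name gives a position, not a target of regulation. The distance from the window to the nearest start ranged from 1388 bp at Ube2f to 497534 bp at Cited2.

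**Figure D2:**
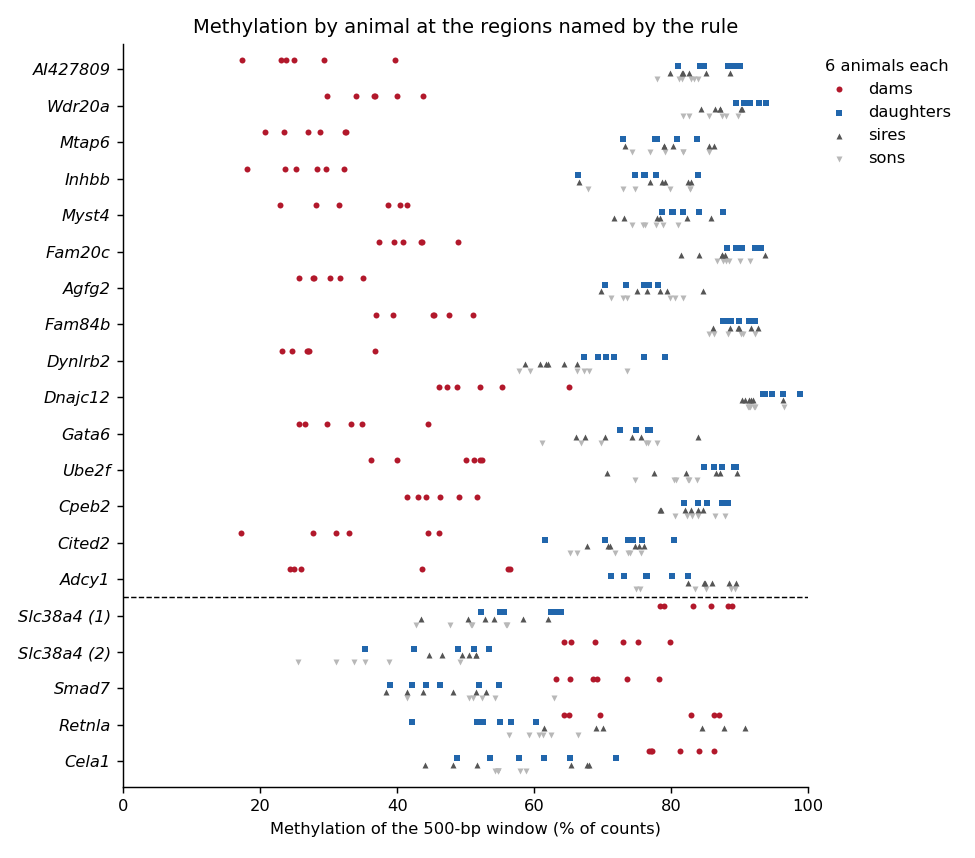
Methylation of the leading 500-bp window (x axis, % of counts) in each animal at the 15 regions lower and 5 of the regions higher in dams (y axis, gene symbols; the dashed line parts the directions), with 6 dams, 6 daughters, 6 sires and 6 sons. In the upper 15 rows dams lie to the left of the other groups, as at Wdr20a, where dams have 29.8% to 43.8% and daughters 89.4% to 93.9%.

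Prlr, the prolactin receptor, held 3 called windows, all intronic and all lower in dams, of 113 tested in the gene or within 10 kb of it. At chr15:10160501-10161000 the B6 dams had 66.3%, 64.9% and 59.9% and the C3 dams 48.9%, 59.7% and 55.4%, and the 6 daughters ran from 81.0% to 87.1%. The 2 groups did not overlap. The means were 59.2% ± 6.40 and 84.5% ± 2.05 (SD, n = 6 each, adjusted p = 1.41e-08), with sires at 88.3% ± 1.70 and sons at 88.1% ± 1.83. Its centre lay 7009 bp downstream of an annotated internal start of the gene.

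The other 2 called windows of Prlr adjoin each other, at chr15:10279501-10280000 and chr15:10280001-10280500, 35893 and 36393 bp past the last annotated start and also within 10 kb of the neighbouring gene Agxt2. Dams had 61.1% ± 4.75 and 66.96% ± 5.15, and daughters had 86.9% ± 2.34 and 91.5% ± 1.71 (adjusted p = 9.52e-09 and 3.84e-08). No dam overlapped a daughter in either. Within the printed stretch of the second one, the CpG at position 10280067 changed most, with 30.6% of 144 counts in dams and 88.6% of 149 counts in daughters.

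Across the whole of Prlr the dams were lower in 88 of 113 windows, with a median difference of -2.98 points against -0.368 over all tested windows. The share of all tested windows with dams lower was not counted, and neighbouring windows of a gene are not independent. At an adjusted p below 0.05 with no minimum difference, 12 of the 113 windows were lower in dams, against 0.149% of all tested windows. In 14 windows of the gene every dam lay below every daughter and in 0 every dam lay above, against 0.395% and 0.0842% of all tested windows. Daughters and sons, a comparison that shares the daughters, also differed in this gene: 13 windows passed at an adjusted p below 0.05, 12 of them lower in daughters, against 0.343% of all tested windows that differed either way. The smallest adjusted p of these was at chr15:10109501-10110000 (5.1e-06, limma), with means of 18.9% in dams, 21.9% in daughters, 41.3% in sires and 42.7% in sons, where dams and daughters were not called apart (adjusted p = 0.737). This window was named after its values were seen.

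**Figure D3:**
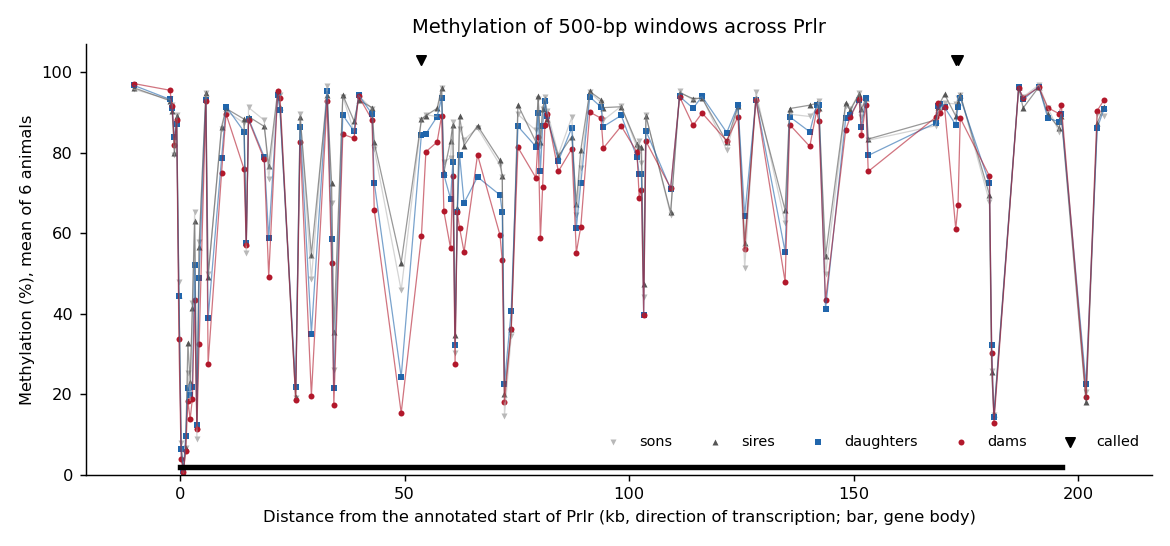
Methylation (y axis, %, mean of 6 animals) of the 113 tested 500-bp windows of Prlr by distance from the annotated start of the gene (x axis, kb), for dams, daughters, sires and sons; black triangles mark the 3 called windows and the bar the gene body. Dams lie below daughters in 88 of the 113 windows (median difference -2.98 points, against -0.368 over all tested windows). At the second called window dams have 61.1% against 86.9%.

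Ghr, the growth hormone receptor, had 2 called windows of 110. At chr15:3421001-3421500 the B6 dams ran from 45.2% to 51.2%, the C3 dams had 35.9%, 42.2% and 34.4%, and daughters ran from 77.0% to 83.3%. The fall of 37.4 points (43.1% ± 7.02 against 80.5% ± 2.35, SD, n = 6 each, adjusted p = 1.58e-11) was the largest near any listed gene. This window reaches an exon and is centred 394 bp downstream of an annotated start that lies within the longer gene. The second window, at chr15:3416501-3417000 in the following intron, had 47.3% ± 5.36 in dams and 72.3% ± 2.91 in daughters (adjusted p = 5.70e-07). Sires and sons were at 64.3% ± 4.95 and 64.1% ± 5.03 there, between the female groups.

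Prlr and Ghr carried all 5 called windows of the 22 genes on a list of prolactin and growth hormone signalling. The other 20, which include the kinase Jak2, the factors Stat5a and Stat5b, the inhibitors Socs2 and Cish, and the target Igf1, held none. Since the genes were listed with earlier results known, the counts are descriptions. The share of windows called lower was 0.276% on this list and 0.0190% over all protein-coding genes with 10 kb on either side. With the minimum difference set at 10 points, which calls 1742 windows lower (0.12% of those tested) and 241 higher (0.0165%), the list held 21 windows lower, with 10 in Prlr, 7 in Ghr, 3 in Cux2, a transcription factor of female liver, and 1 in Socs2. A single window, at Igfbp2, was higher at that setting.

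The other lists held from 0 to 2 genes with a window lower, read against 0.891% of all protein-coding genes. Lipc, the hepatic lipase that remodels circulating lipoproteins, was the only one of 26 lipid genes with a call, an intronic window at 40.1% ± 8.86 in dams and 62.1% ± 1.63 in daughters (adjusted p = 3.79e-07). At the 10-point setting 6 of the 26 lipid genes had a window lower (23.1%, against 4.97% of all genes): Lipc had 7, Elovl6 3, Me1 and Cd36 2 each, and Fasn and Scd1 1 each, while Acacb had 1 window higher. Among 12 genes of glucose and insulin action, Insr (the insulin receptor) and Tcf7l2 (a Wnt effector) had 1 window each, with falls of 21.2 and 21.8 points. The Insr window was intergenic, 50967 bp from the nearest start of that gene. Sires and sons had 73.95% and 74.09% there, between dams (60.1%) and daughters (81.2%). Mki67, the proliferation antigen, was the only one of 15 growth and cell cycle genes, with an intergenic window upstream of its start at 62.2% ± 7.99 against 85.3% ± 3.28 (adjusted p = 5.36e-06). Dnmt3a, the de novo methyltransferase, was the only one of 9 genes that write or remove DNA methylation, with 58.0% ± 8.31 against 78.2% ± 2.29 (adjusted p = 2.29e-05). Its fall of 20.2 points barely met the 20-point rule, and B6 dam 2 stood apart at 41.78% (nearest dam 57.65%). At the 10-point setting Dnmt3a had 2 windows lower and Tet3 had 1.

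Tcf3, an E-protein that binds E-boxes, was the only one of 16 basic helix-loop-helix genes with a call. Its window had 56.4%, 54.7% and 44.1% in B6 dams and 75.3%, 79.2% and 82.7% in C3 dams, below the 91.0% to 92.4% of the daughters in both strains but more so in B6. The 18 bile acid genes (869 windows tested) and the 7 steroid and thyroid hormone receptor genes that could be measured (826 windows) held 0 called windows. At the share of all tested windows, 0.019%, fewer than 1 would fall on lists of this size, so these counts say little. At the 10-point setting each of these 2 lists had 1 window lower, at Cyp8b1 and Thrb.

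By number of called windows the leading protein-coding genes were Ralgps1 with 4 and Dnajc12, Angptl2, Rab6b, Prlr and Slc38a4 with 3 each. Angptl2, a secreted angiopoietin-like protein, lies inside Ralgps1, so 3 windows count for both. The strongest of the 3, at chr2:33083501-33084000, was at 53.6% ± 5.34 in dams and 90.5% ± 1.39 in daughters (adjusted p = 1.58e-12), and the next one, with 5 CAGCTG, at 31.2% ± 4.87 and 59.0% ± 5.49. Dnajc12, a co-chaperone of the enzymes that hydroxylate aromatic amino acids, had 2 adjoining intronic windows 2190 and 2690 bp from the nearest annotated start, which lies within the gene, with falls of 23.4 and 42.7 points, and 1 just past its end. In the second of them dams ran from 46.2% to 65.0% and daughters from 93.5% to 98.8%.

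Of the 11 windows higher in dams, 3 were in Slc38a4, an imprinted gene for an amino acid transporter of liver. At chr15:96855501-96856000 the B6 dams had 85.8%, 89.0% and 88.3% and the C3 dams 83.2%, 78.4% and 79.0%, and daughters ran from 52.3% to 64.0%, without overlap. The rise was 25.2 points (84.0% ± 4.55 against 58.7% ± 5.03, SD, n = 6 each, adjusted p = 6.73e-09), and sires and sons were at 53.5% ± 6.43 and 50.7% ± 5.06. The other 2 windows, at chr15:96852001-96852500 and chr15:96852501-96853000, rose by 20.9 and 24.03 points, but the difference of differences against sires and sons did not pass there (limma adjusted p = 0.0537 and 0.625), and at the second of them sires were 13.5 points above sons. At the 10-point setting Slc38a4 held 7 windows higher and 0 lower. The list of nutrient transporters had no window lower at 20 points, while at 10 points Cp had 2 lower and Slc7a2 had 2 higher.

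Smad7, the inhibitor of TGF-beta signalling, had 2 adjoining intronic windows higher in dams. The first was at 69.7% ± 5.48 in dams and 46.4% ± 5.99 in daughters (adjusted p = 1.83e-05), with sires at 46.0% ± 5.79. Cela1, an elastase, had 1 window that rose by 20.7 points. Near Retnla, a resistin-like secreted protein, dams were 22.8 points above daughters, but sires had 61.5% to 90.8% and were also 16.1 points above sons. In 9 of the 11 windows no dam overlapped a daughter, against 0.0842% of all tested windows with dams on the upper side. Here too the choice of windows on the same females largely fixes the separation.

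Most windows lower in dams were lower in both strains, although the choice on pooled animals partly fixes that. Against their own daughters, both strains were lower in 258 of the 277 windows (93.1%), and both were lower by at least 10 points in 245. Each strain's own contrast called 196 windows in B6 (0.0535% of all tested windows were called lower in it) and 216 in C3 (0.139%), and 136 were called in both. Over all tested windows the share called in both cannot exceed the 0.0535% called in B6. The share with both strains lower was not counted there. The medians were -24.2 points for B6 dams and -25.2 points for C3 dams, against -0.873 and 0.117 points over all tested windows. On their own these contrasts also carry the strain difference, since inbred dams are compared with hybrid daughters.

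Agreement was therefore also read between group means of separate animals, an analysis added after the first results were seen. The p-values on both sides rest on 1 estimate of the spread from all 24 animals, so the calls are not fully separate, while the differences are. Windows where B6 dams were lower than both B6 sires and B6C3F1 daughters numbered 220 (0.0151% of tested windows). In C3 animals, 202 of them (91.8%) had dams lower than both C3 sires and C3B6F1 daughters, a pattern of 36.8% of all tested windows, and 113 (51.4%) were called in both of those contrasts, against 0.0219% of all. The median difference of C3 dams from C3 sires at the 220 windows was -23.95 points. In the reverse direction 319 windows were chosen in C3 animals, and in B6 animals 270 (84.6%) had the same sign in both contrasts, against 46.3% of all windows, and the same 113 (35.4%) were called. No animal entered the means of both sides. Of windows higher in dams, 22 were chosen in B6 animals and 7 (31.8%) had that sign in both C3 contrasts, against 28.8% of all windows. In C3 animals 35 were chosen and 21 (60.0%) had that sign in B6, against 21.0%. The 2 called on both sides were 9.09% of the 22, against 0.0024% of all tested windows called in C3. They were 5.71% of the 35, against 0.00151% called in B6. The B6 dams minus sires and the C3 dams minus sires contrasts called 0.038% and 0.0542% of all windows lower.

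**Figure D4:**
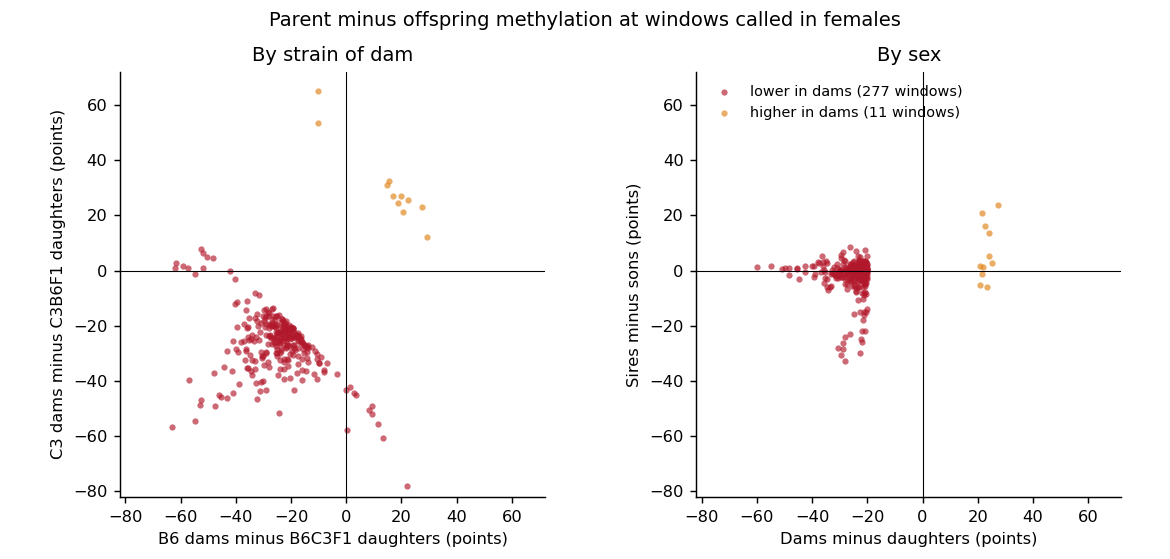
Parent minus offspring methylation (percentage points) at the 277 windows lower and 11 higher in dams. Left, B6 dams minus B6C3F1 daughters (x axis) against C3 dams minus C3B6F1 daughters (y axis); right, dams minus daughters (x axis) against sires minus sons (y axis). On the left, 258 of the lower windows lie in the lower left quadrant; on the right, most lie near 0 on the y axis and a small group reaches -32.7.

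In males the same windows were mostly alike between generations. At the 277 windows the median of sires minus sons was -0.564 points, and 12 windows were called lower and 0 higher there; over all windows sires minus sons called 0.00158% lower and 0.000686% higher. The difference of differences, dams minus daughters less sires minus sons, which shares the females that chose the windows, was called lower in 195 of the 277 windows and higher in 0 (0.0182% and 0.000343% of all windows). Between daughters and sons, a comparison that also shares the daughters, 2 of the 277 windows were called lower and 2 higher, against 0.00357% and 0.0474% of all windows, and the median difference was -0.0522 points. Among the 21 named regions, the difference of differences passed an adjusted p of 0.05 in all 15 that were lower and in 3 of the 6 that were higher, namely the Slc38a4 window shown above, Smad7 and Cela1.

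A minority of windows had another form. In 19 of the 277 windows B6 and C3 dams had opposite signs against their daughters, and there the median of sires minus sons was -21.8 points, with 15 windows at -10 or below. In the 258 others it was -0.323 points, with 6 at -10 or below. Rab6b is an example: 3 windows just upstream of this small GTPase gene were called, and at chr9:103010501-103011000 the B6 dams had 20.5%, 27.4% and 34.2%, the C3 dams 90.6%, 93.4% and 93.0%, and daughters 86.1% to 94.6%. There, sires minus sons was -28.1 points and the difference of differences was not called (limma adjusted p = 0.915). Among the higher windows, those near Stt3b and Gm10775 had the same form, with 53.5 and 65.0 points in C3 and -10.2 points in B6 for each; these 2 were named after their values were seen.

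Where dams and sires were compared within a strain, the difference itself differed by strain in 15 windows where the B6 difference was the lower one (0.00103%) and 7 where the C3 difference was (0.00048%). The count ran from 2 to 40 under other settings, so single calls are uncertain, that of Itpr1 included. Of those 22, 4 were among the 277 windows, which were chosen on the same dams. That was 1.44% of the 277, against 0.00103% and 0.00048% of all tested windows. The window in an intron of Itpr1, a calcium channel of the endoplasmic reticulum, was at 43.3% ± 4.13 in B6 dams and 43.3% ± 3.82 in C3 dams. There the sires had 62.8% ± 3.21 in B6 and 85.4% ± 1.87 in C3 (SD, n = 3 each, limma adjusted p = 0.0494). The other 3 were 15708 bp from the start of Med9, 42607 bp from the start of Rrm2 and in an exon of Abca17. Dams minus sires there was -2.65 points in B6 and -42.3 in C3 near Med9. Near Rrm2 it was -46.75 and -0.915, and in Abca17 -38.4 and 4.47, so in each the fall lay mostly in a single strain. All 4 were named after their values were seen.

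Of the 277, 127 were intergenic (45.9%, against 48.3% of all tested windows), 105 intronic (37.9% against 37.4%) and 45 touched an exon (16.3% against 14.4%). None contained an annotated start site, against 1.71% of all windows, and 13 (4.69%) lay within 1000 bp of one, against 6.10%. The 69166 tested windows under 20% in daughters could not be called lower, since they cannot fall by 20 points. More than 10 kb separated 201 of them (72.6%) from any start, against 73.7%. A narrower set was the 412208 tested windows whose daughter level lay within the quartiles of the lower windows. Against it, the lower windows more often touched an exon (16.3% against 8.26%) or lay within 1000 bp of a start (4.69% against 3.29%). They were less often intergenic (45.9% against 58.3%), and 0.622% of the narrower set contained a start site. Lower windows outside those quartiles are counted too, so the levels are not matched, and these shares were not tested. The lower windows held a median of 6 CpGs, against 7 in all tested windows. A variant between B6 and C3 on the deposited list fell in 62 of them (22.4%), against 22.1% of all windows.

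Calls came mainly from windows that daughters held at intermediate levels. Windows at 40% to 60% in daughters were called lower in 0.0907% of cases (62 windows), those at 60% to 80% in 0.0393% (119) and those at 80% to 100% in 0.00977% (95). Every autosome had windows called lower, from 6 on chromosome 16 to 25 on chromosome 15, where Ghr and Prlr lie. Chromosome 15 had the highest share called lower, 0.0391% of its tested windows against 0.019% of all tested windows.

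The E-box CAGCTG, a site for dimers of basic helix-loop-helix proteins that reads the same on both strands, occurred in 164 of the 277 windows (59.2%) and in 22.6% of all tested windows. Among the 412208 tested windows whose daughter level lay within the quartiles of the 277 (61.5% to 83.1%) the share was also 22.6%. Of the lower windows, 33 had 2 sites (11.9%, against 3.00% of all) and 14 had 3 or more (5.05%, against 0.449%). The median difference was -23.9 points in the 164 windows with it and -23.9 points in the 113 without it.

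When all 2080 words of 6 letters were ordered by how much more often the lower windows held them than all tested windows did, CAGCTG had rank 1 (36.7 points more) and CACCTG, another E-box, rank 2 (54.5% against 32.9%). Words overlapping CAGCTG by a shift of 1 letter, AGCTGC and ACAGCT, stood at ranks 3 and 5. Words with GCCAA or its reverse complement TTGGC, part of the NF1 family's site, followed at ranks 8, 11 and 12 (40.8% against 26.4% for CTTGGC). This ordering was added after the E-box share was seen, and the words of a window are not independent of each other.

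**Figure D5:**
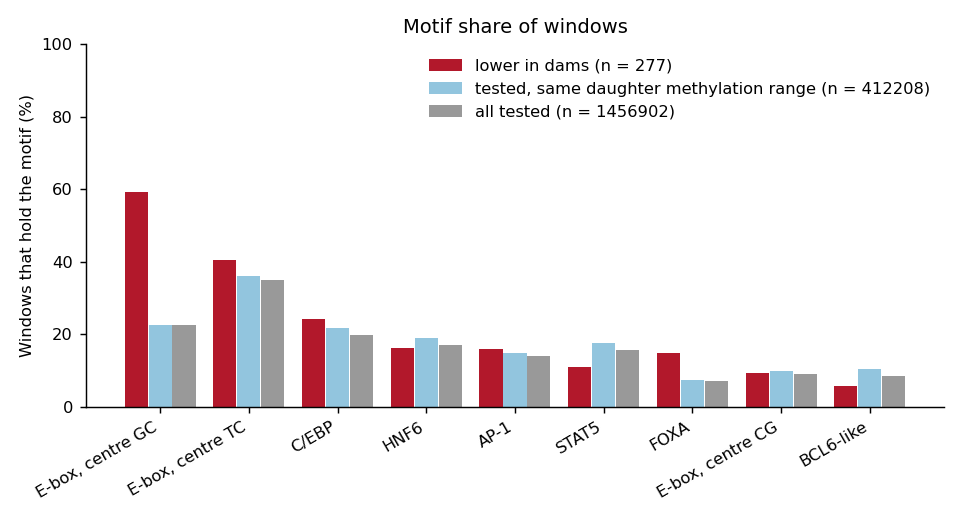
Share of 500-bp windows that hold a motif on either strand (y axis, %), for 3 sets of windows. These are the 277 windows lower in dams, the 412208 tested windows with daughter methylation within the quartiles of those 277, and all 1456902 tested windows. The E-box with GC at its centre stands at 59.2% against 22.6%, and FOXA at 14.8% against 7.05%; the STAT5 motif is at 10.8% against 15.7%.

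Other motifs differed less. FOXA (TGTTTAC, a pioneer factor of hepatocytes) occurred in 41 of the 277 windows (14.8%, against 7.05% of all tested windows), and the C/EBP motif TTGCNNAA in 67 (24.2% against 19.7%). STAT5 (TTCNNNGAA), the factor that Prlr and Ghr signal through, was found in 30 (10.8% against 15.7%), BCL6-like sites (TTCNTNGAA, a subset of the STAT5 letters) in 16 (5.78% against 8.57%) and HNF6 (ATCAAT) in 45 (16.3% against 17.0%). AP-1 (TGANTCA) was found in 44 (15.9% against 14.0%). The E-boxes CATCTG and CACGTG were in 40.4% and 9.39% of the lower windows, against 34.9% and 9.11%; both, like CAGCTG and CACCTG, are forms of CANNTG, which nearly all windows hold (99.3% against 93.8%). The longer palindromic motifs of the oestrogen receptor, HNF1 and NF1 were in 0 of the 277 windows, against 0.0572%, 0.0342% and 0.0371% of all, as was that of HNF4A (0.645%), and the steroid receptor motif was in 4 (1.44% against 0.970%). The 11 windows higher in dams held 0 CAGCTG. Both strands were searched, and a match says only that the letters are present.

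Single CpGs of the lower windows were ordered by distance to the nearest CAGCTG. Those 50 to 100 bp away had the largest median difference, -29.4 points (296 CpGs in 141 windows), those within 25 bp -26.3 points (149 CpGs) and those beyond 200 bp -23.0 points (975 CpGs). The dams' median level was 32.5% to 36.5% within 100 bp and 52.3% beyond 200 bp, and the daughters' was 68.0% to 73.4% and 81.1%. These values describe windows that were chosen for the same difference and were not tested.

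Cell type markers were compared between the groups at their start sites. Mean methylation within 500 bp of the start sites differed between dams and daughters by -2.57 points for 12 hepatocyte genes, 1.06 for 4 Kupffer cell genes, 0.652 for 6 endothelial genes, 0.0155 for 5 stellate genes, 1.44 for 5 cholangiocyte genes and 0.491 for 8 leukocyte genes, and the groups' ranges overlapped for every list. Adipocyte and muscle genes, 3 each, differed by -0.450 and -0.0473 points. Of the 12 hepatocyte genes 11 were lower in dams, by at most 6.01 points at Apoa1, and dams and daughters separated in 0 genes of any list. Their part in the called windows was not tested.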

How the data were processed

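The authors deposited whole-number counts of methylated and unmethylated reads at each CpG for each of 24 mouse livers. Per the submitters' processing notes and the study's methods, paired-end bisulfite reads were handled with CASAVA 1.8.2, aligned to mm9 with Bismark 0.7.8 on Bowtie 0.12.8 and freed of duplicates with Bismark's own tool. CpGs altered by a strain variant were left out by the authors, which removes those sites from every window. Here counts were summed over 500-bp windows with at least 5 CpGs and 30 counts in each animal. The log2 ratio of methylated to unmethylated counts, with a pseudocount of 1, was fitted with group means over all 24 animals (limma 3.58.1, trended and robust, R 4.3.3), and p-values were Benjamini-Hochberg adjusted. edgeR 4.0.16 on the counts of the 12 females was an alternative. The fit was tested on simulated data. Summaries used numpy 2.4.6, pandas 2.3.3 and scipy 1.17.1, and gene models of the mm9 build.

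Named are the regions with the largest differences where no dam overlapped a daughter and depth reached 10 counts per CpG (15 lower, and the 6 higher that qualified), the 6 protein-coding genes with most called windows, every listed gene with a called window, and Prlr. The members, lists and motifs were chosen with earlier results of these data known. The reading of each strain's windows in the other strain and the ranking of words were added after results were seen. One of the 6 higher regions is not reported here. Other samples of the series were not analysed here. The number of counts limits precision, and the spread between animals enters every test.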

Additional observations from a re-analysis of the deposited data

Results flagged for a closer look

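In all, 72 groups of 6 values were looked at. They came from the named windows, the genome-wide level, and the means of the lower and of the higher windows. Of these, 3 held an animal far from the rest of its group, all at named windows. Chance alone flags about 1 group in 20 where the animals are of a single kind. Here each group joins B6 with C3 dams, or daughters of both crosses. In the Dynlrb2 window B6 dam 1 was at 36.71%, the nearest dam at 27.1%. In the Dnmt3a window B6 dam 2 was at 41.78%, the nearest dam at 57.65%. In the Prlr window at chr15:10279501-10280000 C3 dam 3 was at 70.0%, the nearest dam at 61.59%.

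The difference between dams and daughters differed from that between sires and sons in 270 windows (limma, interaction of generation and sex). Of these, 265 were lower (0.0182% of tested windows) and 5 higher (0.000343%). It also differed in 18 of the 21 named regions, but those were chosen on the same females, which largely fixes that count. The difference between dams and sires differed between B6 and C3 in 22 windows (limma, interaction of sex and strain).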

How the results depend on the processing

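With a 10-point minimum 1742 windows were lower and 241 higher in dams, and the B6 pair, the C3 pair, sires against sons and the difference of differences called 3052, 11964, 141 and 603 windows, against 1054, 3202, 33 and 270. At least 10 CpGs gave 37 lower and 3 higher, at least 100 counts 180 and 3, and 1000-bp windows 129 and 5. The first 2 of these settings remove windows: they kept 39 and 180 of the 277 lower windows, of which 37 and 180 were called again. The 11 higher windows became 6 without windows where sires differed by 10 points, 6 without windows holding a variant, and 6 with windows moved by 250 bp. The difference by strain gave 40 windows with a pseudocount of 5 and 2 with the replicate block, against 22. Leaving out 1 animal gave 250 to 311 lower, 9 to 17 higher (17 without C3B6F1 daughter 2), 230 to 292 lower in both strains, and a genome-wide difference of -0.59 to -0.173 points. edgeR's quasi-likelihood test called 281 lower windows, 277 of them shared with limma. For the 33 named windows under 25 settings there were 769 values, and all kept their direction and stayed past the adjusted p. Windows that a setting removed gave no value. Only 2 of the 33 were left at a minimum of 10 CpGs, and 22 at 100 counts. Leaving out windows with a variant kept 23, and leaving out windows where sires differed by 10 points kept 29. The minimum difference was not part of this check. These windows were chosen on the same females, which partly fixes the result.

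Animals with the same replicate number did not deviate together (correlations of -0.00198 to 0.0104 in 6 pairs), so the numbers were not taken as pairs. The replicate block gave 277 lower and 12 higher windows. Depth fell under 10 counts per CpG in some animal at 24 of the 277 windows.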
